A study of Mus musculus with 4 samples.

Results

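Of the 18193 genes with a named probe set on these mouse arrays, 10 genes of the endothelium were followed, the cells that line blood vessels. They were chosen by symbol, with earlier results of these data known. Cldn5, Slco1c1, Mfsd2a and Slc2a1 belong to the blood-brain barrier, Pecam1, Kdr, Tie1, Tek and Emcn mark endothelium in general, and Plvap marks fenestrated vessels. The study asked what loss of the transcription factor FoxO6 changes in the developing face, and expression was measured on 1 Affymetrix array each for FoxO6-/- brain, WT brain, FoxO6-/- mandible and maxilla (the jaws), and WT mandible and maxilla. All 4 arrays are labelled postnatal day 0, while the methods speak of embryos. In the FoxO6-/- mice a LacZ and neomycin cassette replaced the coding region of the gene in every cell, and according to the methods the mutant animals could be null or heterozygous. Each mandible and maxilla array carried RNA pooled from 4 animals, and the methods do not say whether this holds for the brain arrays too. Foxo6 itself was not analysed here.

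Vessels of the brain form a barrier in which tight junctions close the path between endothelial cells, transporters carry selected nutrients and hormones across them, and transport by vesicles is held low. In mice this barrier is built before birth under Wnt signals from neural cells. Vessels elsewhere leak more, and those of glands and some other tissues carry pores closed by diaphragms that PLVAP forms. In whole tissue, fewer endothelial cells and less RNA per endothelial cell cannot be told apart.

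The deposited values are MAS5 signals, a linear intensity per probe set scaled to a trimmed mean of 500.0 on all 4. Signals below 101, their overall median, were treated as low, and this value is called the floor. A gene, represented by its brightest probe set, entered a comparison when its mean signal reached the floor. Tie1, a receptor partner of TEK, had signals of 37.6 in FoxO6-/- brain, 93.6 in WT brain, 52.5 in FoxO6-/- jaws and 76.2 in WT jaws, and entered no comparison. The other 9 members are carried by 11 probe sets, 3 of them for Slc2a1.

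The tissue labels were set against marker genes. All 12 neuronal markers in the fit of tissue were higher in brain on average and 11 passed the test, with summed signals of 68784 in FoxO6-/- brain and 54977 in WT brain, against 3084 in FoxO6-/- jaws and 4780 in WT jaws. Markers of bone, muscle and oral epithelium were also present on the brain arrays. All 12 reached the floor on average, their sums were 100529 in FoxO6-/- brain and 99750 in WT brain, against 193299 in FoxO6-/- jaws and 160673 in WT jaws, and their median in jaws was 2.001-fold that in brain. Col1a1, a bone and connective tissue collagen, had 9307 and 11231 in FoxO6-/- and WT brain, against 13174 and 13971 in FoxO6-/- and WT jaws. The brain arrays thus carry transcripts typical of other head tissue, and the part of these in the endothelial signals was not tested.

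The FoxO6-/- mandible and maxilla array also stands apart in RNA quality. Its ratio of 3' to 5' signal for Actb was 3.37, against 2.21 to 2.23 on the other arrays. Its ratio for Gapdh was 1.95, against 1.44 to 1.55 on the others.

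**Figure D1:**
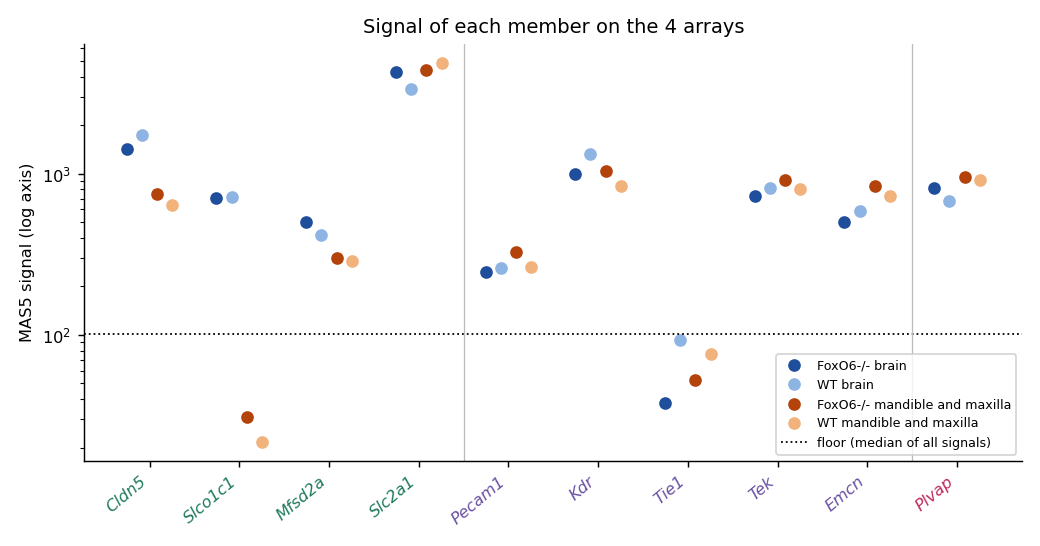
MAS5 signal (log axis) of the 10 members on each of the 4 arrays, 1 point per array, with the brightest probe set of each gene and a line at the floor of 101. Slco1c1 lies below the floor in both jaw arrays and Tie1 on all 4 arrays.

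The first comparison asked which of these genes differ between brain and the jaws. Slco1c1 and Cldn5 were higher in brain, Mfsd2a and Slc2a1 did not pass the test, and neither did any general endothelial gene or Plvap. Brain was compared with jaws by limma, with terms for tissue and for genotype on the log2 scale, over 12569 genes with Benjamini-Hochberg adjustment, so each tissue has 2 arrays, 1 per genotype. The fit has 1 residual degree of freedom, and any difference between genotypes in the tissue effect counts as error. Of the 9 members in the fit 2 were higher in brain and 0 were lower, and 3 had an unadjusted p under 0.05. Over all genes 8.73% were called higher in brain and 6.48% lower, 15.2% in all.

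Slco1c1 encodes OATP1C1, which carries thyroxine into the brain. Its signals were 707 in FoxO6-/- brain and 721 in WT brain, against 31.1 in FoxO6-/- jaws and 21.6 in WT jaws. Both brain arrays lie far above both jaw arrays. The log2 fold change was 4.78 (SE 0.209, limma adjusted p = 0.00857), or 27.6-fold on the deposited signals. Since both jaw signals are under the floor, a log2 difference of 2.83, obtained with low signals raised to the floor, is the safer lower bound. Slco1c1 entered the fit only through its brain signals, so its direction was set by entry. Slco1c1 is also known from the choroid plexus and from astrocytes. Of 7 choroid plexus markers in the fit 1 was called, higher in brain, 3 were above 0 and 4 below, and the median log2 difference was -0.58. The called gene was Ttr, which encodes the main secreted protein of that tissue, at least 7.75 higher in brain with its jaw signals raised to the floor. Unlike the median, the summed signal of the 12 listed genes with a probe set was higher in brain. It was 24215 in FoxO6-/- brain and 30015 in WT brain, mostly from Ttr, against 6348 in FoxO6-/- jaws and 7446 in WT jaws. Of 11 markers of astrocytes and radial glia 4 were called higher and 1 lower in brain, with a median of 1.46. Fabp7, a lipid carrier of radial glia, was higher by 4.35, and Hopx, which epithelia express too, had -1.67. The part of these cells in the Slco1c1 result was not tested.

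Cldn5 encodes claudin-5, the dominant tight junction protein of brain endothelium. Its signals were 1419 in FoxO6-/- brain and 1735 in WT brain, against 748 in FoxO6-/- jaws and 637 in WT jaws. The tissues did not overlap, and the share of all genes that separate so was not counted. Cldn5 was 2.27-fold higher in brain, with a log2 fold change of 1.18 (SE 0.203, 95% interval 0.58 to 1.79, limma adjusted p = 0.0481). This call lies at the threshold. It held under 9 of 14 alternatives, with adjusted p between 0.0124 and 0.192, and it was lost without the WT brain array (adjusted p = 0.0668) and without the WT jaw array (0.0504).

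Mfsd2a encodes a lipid transporter that brain endothelium needs for uptake of docosahexaenoic acid and for low vesicle transport. It had 499 in FoxO6-/- brain and 416 in WT brain, against 301 in FoxO6-/- jaws and 288 in WT jaws. Both brain values lie above both jaw values, and the share of all genes that separate so was not counted. The log2 difference of 0.63 (95% interval 0.17 to 1.09) did not pass after adjustment (limma adjusted p = 0.0900).

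Slc2a1 encodes GLUT1, the glucose transporter of the barrier, which red blood cells and many other cells carry too. Its brightest probe set gave 4259 in FoxO6-/- brain and 3353 in WT brain, against 4417 in FoxO6-/- jaws and 4856 in WT jaws. A second gave 2867 and 2236 in FoxO6-/- and WT brain, against 3361 and 2863 in FoxO6-/- and WT jaws. The third gave 1216 and 1032 in FoxO6-/- and WT brain, against 1341 and 1185 in FoxO6-/- and WT jaws. All 3 probe sets were thus lower in brain than in jaws within each genotype. For the brightest the log2 ratio was -0.05 in FoxO6-/- and -0.53 in WT. The fitted log2 difference of the brightest was -0.29 (95% interval -0.88 to 0.29, limma adjusted p = 0.375). Among erythroid markers only 3 of 12 with a probe set reached the floor, and their summed signals of 948 in FoxO6-/- brain and 1050 in WT brain, against 886 in FoxO6-/- jaws and 1038 in WT jaws, overlapped between the tissues.

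None of the 4 general endothelial genes in the fit passed the test. Kdr, the main VEGF receptor, had 988 in FoxO6-/- brain and 1315 in WT brain, against 1042 in FoxO6-/- jaws and 842 in WT jaws. Tek, the angiopoietin receptor, had 722 and 816 in FoxO6-/- and WT brain, against 919 and 802 in FoxO6-/- and WT jaws. For both genes the ranges of the tissues overlap, and the log2 differences were 0.28 for Kdr (95% interval -0.44 to 1.01) and -0.16 for Tek (-0.69 to 0.37).

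Pecam1, an adhesion molecule at endothelial contacts that platelets and leukocytes share, had 245 and 261 in FoxO6-/- and WT brain, against 326 and 262 in FoxO6-/- and WT jaws. Emcn, a sialomucin of the endothelial surface, had 499 and 585 in FoxO6-/- and WT brain, against 837 and 727 in FoxO6-/- and WT jaws. Plvap had 816 and 674 in FoxO6-/- and WT brain, against 949 and 918 in FoxO6-/- and WT jaws. All 3 genes were lower on both brain arrays than on both jaw arrays, for Pecam1 by a narrow margin (261 in WT brain against 262 in WT jaws). The share of all genes whose tissues separate in this way was not counted, for these genes or for the other members. Such separation alone therefore does not show a lower level in brain. The log2 differences were -0.21 for Pecam1 (95% interval -0.76 to 0.34), -0.53 for Emcn (-1.09 to 0.03) and -0.33 for Plvap (-0.80 to 0.14), and none passed, with limma adjusted p of 0.483, 0.161 and 0.249.

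**Figure D2:**
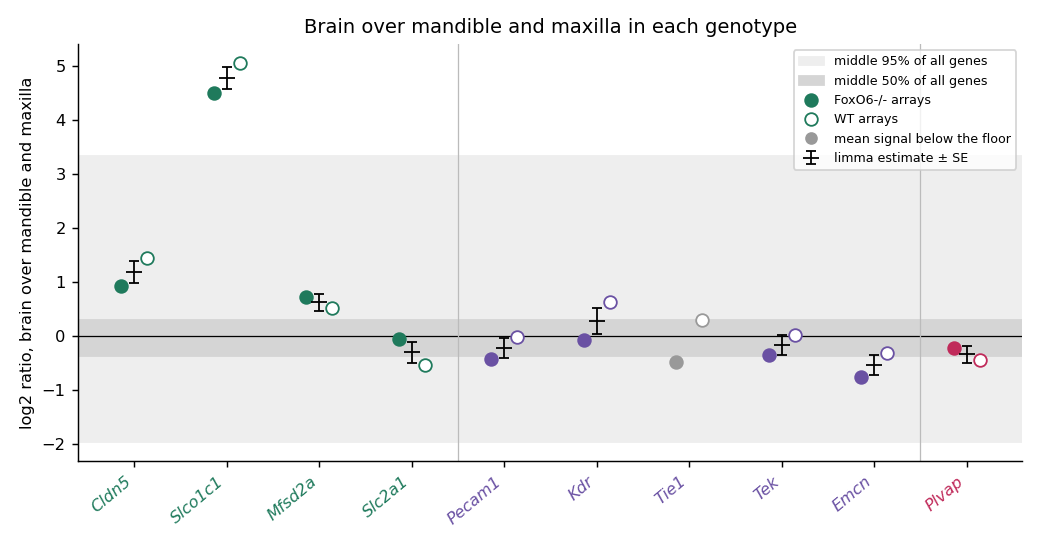
The log2 ratio of brain over mandible and maxilla for each member, with a filled point for FoxO6-/- and an open one for WT, the limma estimate ± SE, and grey bands for the middle 50% and 95% of all genes. The estimate of Slco1c1 stands at 4.78 and that of Cldn5 at 1.18, both genotypes of Tie1 are in grey as below the floor, and the estimates of the other general members lie between -0.53 for Emcn and 0.28 for Kdr.

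Within a genotype the tissues can be set side by side without a test. In FoxO6-/- mice 1 of 9 members, Slco1c1, was at least 2-fold higher in brain than in jaws and 0 were 2-fold lower, and 11.8% of all genes were higher and 7.85% lower, 19.7% together. In WT mice 2 of 9, Slco1c1 and Cldn5, passed 2-fold upward and 0 downward, and 9.8% of all genes were higher and 8.45% lower, 18.2% together. Cldn5 had a log2 ratio of 0.92 in FoxO6-/- and 1.45 in WT, on either side of the limit. In both genotypes 1 member, Slco1c1, was 2-fold higher in brain, with ratios of at least 2.81 in FoxO6-/- and 2.84 in WT after its jaw signals were raised to the floor, as were 8.29% of all genes.

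Whole brain and jaws need not hold the same share of vessels, so the barrier genes were also set against the general endothelial genes on the same arrays. The median log2 ratio of brain over jaws for Pecam1, Kdr, Tek and Emcn was -0.38 in FoxO6-/- and 0.0097 in WT. Relative to it, Cldn5 was higher in brain by 1.30 in FoxO6-/- and 1.44 in WT, Slco1c1 by at least 3.19 and 2.83 with its jaw signals raised to the floor, and Mfsd2a by 1.11 and 0.52. Slc2a1 lay at 0.33 in FoxO6-/- and -0.54 in WT, and Plvap at 0.16 and -0.45, so neither kept its direction between the genotypes. The median of the 4 barrier genes exceeded that of the general genes by 1.21 in FoxO6-/- and 0.98 in WT. A floor at the 75th percentile leaves out Slco1c1, Mfsd2a and Pecam1, so that only Cldn5 and Slc2a1 stand for the barrier. The excess was then 0.78 in FoxO6-/- and 0.43 in WT, which does not check the excess of the 4 genes. These values come from 1 array per group and have no test.

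Promoter sequence was available for 8 of the 10 members, as the 250 bases before the RefSeq start in the GRCm38.p6 build. Those of Slco1c1, Cldn5 and Emcn are shown because these genes span the tissue differences, with Slco1c1 the highest in brain and Emcn the lowest. Capitals mark AGGAAG, a core bound by ETS factors of endothelium, in Slco1c1 and Emcn, and CCGCCC, a GC box, in Cldn5, each on either strand (CTTCCT and GGGCGG on the other).
Slco1c1 (chr6:141524104-141524353, plus strand): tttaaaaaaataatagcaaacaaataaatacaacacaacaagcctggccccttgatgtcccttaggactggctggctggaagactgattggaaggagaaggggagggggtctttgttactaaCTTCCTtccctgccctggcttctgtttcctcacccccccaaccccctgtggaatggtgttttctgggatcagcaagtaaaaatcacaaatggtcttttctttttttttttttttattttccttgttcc
Cldn5 (chr16:18776597-18776846, plus strand): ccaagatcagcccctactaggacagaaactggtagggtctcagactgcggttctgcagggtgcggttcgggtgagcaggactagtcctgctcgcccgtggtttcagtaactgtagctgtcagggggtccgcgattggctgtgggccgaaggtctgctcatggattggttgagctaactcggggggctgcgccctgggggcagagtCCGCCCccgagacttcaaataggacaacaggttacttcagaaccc
Emcn (chr3:137340828-137341077, plus strand): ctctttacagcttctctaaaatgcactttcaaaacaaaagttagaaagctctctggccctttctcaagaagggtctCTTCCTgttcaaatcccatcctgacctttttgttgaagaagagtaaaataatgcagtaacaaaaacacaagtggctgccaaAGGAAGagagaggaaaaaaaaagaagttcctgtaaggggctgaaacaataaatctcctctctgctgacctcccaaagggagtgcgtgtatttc
AGGAAG stood in the promoters of Slco1c1, Tie1 and Emcn, 3 of 8, and in 29.5% of all 32851 promoters. CCGCCC stood in those of Cldn5, Slc2a1 and Kdr, 3 of 8, and in 32.7% of all promoters. CTTTGA, a core of the TCF and LEF factors of Wnt signaling (TCAAAG on the other strand), stood in that of Mfsd2a and in 13.8% of all. GTAAACA, a core of the FOXO factors (TGTTTAC on the other strand), stood in 0 of 8, and in 3.17% of all promoters. AGGAAG is in both the highest and the lowest member.

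Wider lists of vessel genes were described beside the members. Of 15 barrier transporters in the fit 4 were higher in brain and 0 lower, beside 8.73% and 6.48% of all genes. All of the 4 but Lrp8 had both jaw signals under the floor. These entered the fit only through their brain signals, so their direction was set by entry. For them the log2 difference with low signals raised to the floor is given as a lower bound. Slc38a5, a glutamine carrier, was higher by at least 1.18. Lrp8, a reelin receptor that neurons carry as well, with 1 jaw signal under the floor, was higher by at least 3.65 on its brightest probe set. A second Lrp8 probe set that reached the floor had lower log2 ratios, 2.70 in FoxO6-/- and 1.15 in WT as deposited. The other two, chosen after their values were seen, were the efflux pump Abcb1a, higher by at least 1.21, and the glutamine carrier Slc38a3, by at least 1.59. Tfrc, the transferrin receptor, and the efflux pump Abcg2 had log2 differences of -0.62 and -0.46 that did not pass. The median over the transporters was 0.15, against -0.05 over all genes.

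Of 12 tight junction genes none passed, and their median log2 difference was -0.30. Marveld2 and Cgn, which epithelia also use, had -0.94 and -0.93, and Jam2 and Cgnl1 had 0.05 and 0.03. On signals as deposited, claudin-5 was thus the only tight junction gene among those measured here, members included, whose call was past the threshold. This depends on the setting. With low signals raised to the floor Cgn had a log2 difference of -0.91 and passed as lower in brain (limma adjusted p = 0.0400). Of 16 genes of Wnt and norrin signaling 1 was higher and 1 lower in brain. Wnt7a, the neural ligand that induces the barrier, was higher by at least 1.07 with both jaw signals, under the floor, raised to it, and Foxq1, a forkhead factor of brain endothelium that epithelia express too, had a log2 fold change of -1.003 (limma adjusted p = 0.0363). The Foxq1 signals in brain, 102 in FoxO6-/- and 94.6 in WT, lay close to the floor. A second Foxq1 probe set that reached the floor had log2 ratios of -0.93 in FoxO6-/- and -0.17 in WT.

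The wider list of general endothelial genes gave the same picture as the general members. None of 32 passed in either direction, 9 were above 0 and 23 below, and the median was -0.16. The lowest were Robo4 at -0.57 and Acvrl1 at -0.56 and the highest Tal1 at 0.76 and Notch4 at 0.56, all on the log2 scale. None of 11 VEGF and angiopoietin ligands and co-receptors passed, with a median of 0.10 and values between -0.71 for Vegfd and 0.68 for Pgf. Of 13 genes of fenestration, caveolae and lymphatic vessels 1 passed, Ackr1, a chemokine receptor of venules and red blood cells, higher in brain by 1.72.

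Of 12 markers of pericytes and smooth muscle, the cells that wrap vessels, 1 was higher and 2 lower in brain. Vtn, which pericytes of the brain express, was higher by at least 2.74 with its jaw signals, both under the floor, raised to it. The muscle proteins Des and Acta2 had log2 fold changes of -1.84 and -0.87. Rgs5, a pericyte marker, had 0.02, from opposed log2 ratios of 0.38 in FoxO6-/- and -0.34 in WT. None of 12 macrophage and platelet markers passed, with a median of -0.18 and summed signals of 11849 in FoxO6-/- brain and 11983 in WT brain, against 13617 in FoxO6-/- jaws and 12801 in WT jaws.

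**Figure D3:**
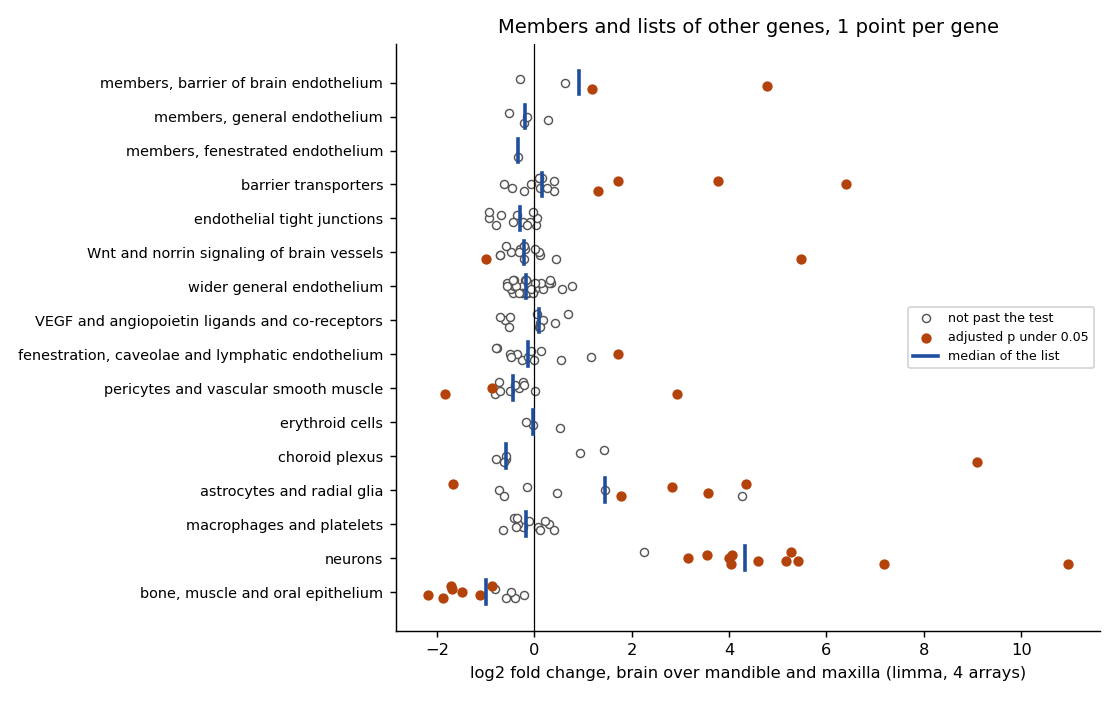
The log2 fold change of brain over mandible and maxilla for the genes of the member lists and of the wider lists, 1 point per gene in the limma fit on signals as deposited, filled where the adjusted p is under 0.05, with a bar at the median of each list. Neurons lie highest with a median of 4.32 and bone, muscle and oral epithelium lowest with -1.001, and the wider general endothelium has a median of -0.16.

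The second comparison asked whether loss of FoxO6 changes these genes. No member that reached the floor differed 2-fold between FoxO6-/- and WT in either tissue. Tie1, with 37.6 in FoxO6-/- and 93.6 in WT brain, lay under the floor on both arrays and was not counted. In jaws 7 of 8 members had a higher signal in FoxO6-/- than in WT, with a median log2 ratio of 0.20, whereas over all genes 48.7% were above 0 and the median was -0.01. In brain 3 of 9 were higher and 6 lower in FoxO6-/-, with a median of -0.09, against 57.3% above 0 and a median of 0.05 over all genes. With 1 array per group there is no test within a tissue. The 2-fold limit was passed by 2.28% of all genes in jaws, 0.591% upward and 1.69% downward, and by 3.16% in brain, 1.13% upward and 2.03% downward.

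The 2 brightest probe sets of the same gene disagreed in this ratio. The difference between them had an SD of 0.415 in jaws and 0.392 in brain over 4927 genes. This SD holds the spread of 2 ratios, so it is too wide a scale for a single ratio. It is not a replicate error either. The ratios of the 8 members in jaws lay between -0.14 and 0.32. In brain they lay between -0.41 and 0.35, with that of Kdr the lowest.

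The 4 general members had a higher signal in FoxO6-/- than in WT jaws. The log2 ratios were 0.32 for Pecam1, 0.31 for Kdr, 0.20 for Tek and 0.20 for Emcn. In brain the same 4 genes had a lower signal in FoxO6-/-, with ratios of -0.09 for Pecam1, -0.41 for Kdr, -0.18 for Tek and -0.23 for Emcn. After median centring, which raises the median of all genes by 0.13 in jaws and 0.14 in brain, Pecam1 and Slco1c1 turned above 0 in brain while Cldn5, Kdr, Tek and Emcn stayed below.

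Cldn5 went with the general genes, with a log2 ratio of 0.23 in jaws and -0.29 in brain. Mfsd2a had 0.06 in jaws and 0.26 in brain, and Plvap 0.05 and 0.27. Slco1c1, under the floor in jaws, had -0.03 in brain, where its signals of 707 in FoxO6-/- and 721 in WT were nearly equal. Slc2a1 had 0.35 in brain by its brightest probe set and 0.36 and 0.24 by the others. In jaws its probe sets disagreed, with -0.14 for the brightest and 0.23 and 0.18 for the others, so no direction can be given there.

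**Figure D4:**
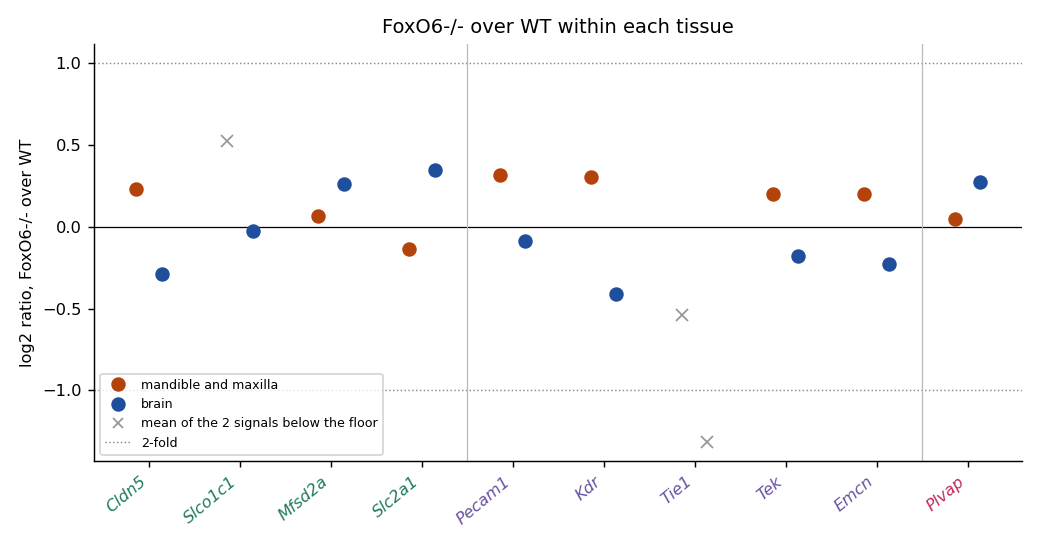
The log2 ratio of FoxO6-/- over WT for each member in mandible and maxilla and in brain, 1 array per group. Dotted lines mark 2-fold, and crosses are genes whose 2 signals average below the floor. All dots lie within the 2-fold lines, and Cldn5, Pecam1, Kdr, Tek and Emcn lie above 0 in mandible and maxilla and below it in brain.

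Thus 5 of 8 members, or 62.5%, were above 0 in jaws and below 0 in brain, and among all 11494 genes in both comparisons 2238, or 19.5%, were. For Kdr the jaw ratio exceeded the brain ratio by 0.72 on the log2 scale, which was the widest gap among these 8 members. The difference between the tissues was not tested, since each ratio rests on 1 pair of arrays. Of the 32 wider endothelial genes 10, or 31.2%, showed this pattern. That list had 8 genes above 0 and 24 below in brain, with a median of -0.21, but 15 above and 17 below in jaws, with a median of -0.03. Most of the wider list was thus on the lower side in brain, and it was evenly split in jaws. Under median centring the members' median in brain was 0.05.

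Markers of other cells also differed between the single FoxO6-/- and WT arrays of a tissue. In jaws all 9 neuronal markers that reached the floor were lower in FoxO6-/- than in WT, with a median log2 ratio of -0.85, and 3 were at least 2-fold lower. Of 5 choroid plexus markers 2 were above 0 and 3 below in jaws, with a median of -0.24, from -2.88 for Otx2 to 0.24 for Sulf1. In brain all 12 neuronal markers were higher in FoxO6-/- than in WT, with a median of 0.32. The erythroid markers were lower in FoxO6-/- jaws in 3 of 3, with a median of -0.36. Bone, muscle and epithelial markers had a median of 0.28 in jaws with 8 of 12 above 0. The part of these shifts, and of the higher 3' to 5' ratios of the FoxO6-/- jaw array, in the endothelial ratios was not tested.

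Across both tissues limma called 0 of 12569 genes for genotype, with a smallest adjusted p of 0.902 and 588 genes at an unadjusted p under 0.05. None of the 9 members was called, and the smallest unadjusted p among them was 0.311. This fit takes a difference between tissues as error, so genes whose ratios have opposite signs average out in it.

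Among the signaling genes of vessels Tspan12 had the lowest log2 ratio in jaws and was at least 2-fold lower in FoxO6-/- in both tissues. TSPAN12 is a membrane partner of the norrin receptor FZD4 in endothelium, and other cells express it as well. Its signals were 556 in FoxO6-/- brain and 1522 in WT brain, and 438 in FoxO6-/- jaws and 1031 in WT jaws. Both FoxO6-/- arrays lie below both WT arrays, and the share of all genes that do so was not counted. The log2 ratio was -1.45 in brain and -1.23 in jaws. Over both tissues the log2 fold change was -1.34 (SE 0.158), with an unadjusted p of 0.00207 and a limma adjusted p of 0.902. It is 1 probe set, chosen from a list by its low value, and no other gene of the 15 in that list was 2-fold different in jaws.

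The growth factors Vegfa and Vegfb were the lowest of the 12 ligands and co-receptors in jaws. Vegfa had 365 in FoxO6-/- jaws and 619 in WT jaws, and 428 in FoxO6-/- brain and 602 in WT brain, with log2 ratios of -0.76 and -0.49. Vegfb had -0.73 in jaws and -0.31 in brain. At the other end Angpt2 and Angpt1, the ligands of TEK, had 0.47 and 0.40 in jaws and -0.30 and -0.05 in brain. The limma adjusted p over both tissues was 0.902 for both VEGF genes. Within the wider endothelial list Esm1, a secreted proteoglycan of sprouting vessels, had 75.1 in FoxO6-/- jaws and 159 in WT jaws, a log2 ratio of -1.08 near the floor, and it was the only one of 32 that reached 2-fold.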

How the data were processed

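Total RNA of brain and of mandible and maxilla was measured on Affymetrix GeneChip mouse genome arrays. The authors combined RNA of 4 animals for each mandible and maxilla array and summarized each probe set with MAS5, and the deposited values are its intensity on a linear scale, with a trimmed mean of 500.0 (outer 2% left out). For MAS5 a version is not given in the sources. No further normalization was applied, and 4 arrays limit the precision.

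Of 45101 probe sets, 64 are controls, 34945 name 1 gene, 932 several and 9160 none. Names were matched by Entrez ID to RefSeq GRCm38.p6 for 34741, and 0 changed. The brightest probe set, by its mean signal, stood for each gene, and the floor was the median signal. Tissue and genotype were fitted with limma 3.58.1 in R 4.3.3 with eBayes (prior degrees of freedom 2.40), and calls took an adjusted p under 0.05. Within 1 tissue or genotype, 2-fold differences were counted without a test. Beside the members, 13 lists of 213 genes in all with the members were used, of which 202 have a probe set. Genes the text names from these lists were, unless said otherwise, among the 2 highest and 2 lowest of their list by tissue or by genotype in mandible and maxilla. The members and lists were chosen with earlier results of these data known. Where a jaw signal was under the floor, a difference given as at least a value was fitted with low signals raised to the floor. A gene with both jaw signals under the floor entered the fit only through its brain signals, so its direction was set by entry. Alternatives changed the scaling, the floor, the probe sets or the fit, or left out 1 array. The fit was tested on simulated data. Tables were handled in pandas 2.3.3 and numpy 2.4.6 under Python 3.11.15, and figures drawn in matplotlib 3.10.9.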

Additional observations from a re-analysis of the deposited data

Results flagged for a closer look

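For 6 of the 8 members in both comparisons the single FoxO6-/- over WT ratio had opposite signs in mandible and maxilla and in brain. Opposite signs were common. Of all 11494 genes in both comparisons 2238 were above 0 in mandible and maxilla and below 0 in brain. Another 3200 were the reverse. The log2 ratio in mandible and maxilla minus that in brain was 0.52 for Cldn5, 0.41 for Pecam1, 0.72 for Kdr, 0.37 for Tek and 0.43 for Emcn, and -0.48 for Slc2a1. The difference was not tested for any of them, because each tissue and genotype has 1 array. The same numbers are the gap between the genotypes in the brain over mandible and maxilla ratio, which for Kdr was -0.08 in FoxO6-/- and 0.64 in WT. For Slc2a1 the sign in mandible and maxilla holds for 1 of 3 probe sets, and for Pecam1 the sign in brain turns with median centring.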

How the results depend on the processing

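The call of Cldn5 between tissues was lost with quantile normalization (limma adjusted p = 0.0530) and with every probe set on its own (0.0505), leaving 1 member called in each, and with no floor (0.192). With no floor 0 genes were called, 3824 had an unadjusted p under 0.05, and 0 members were called, with 0.118 for Slco1c1. With a floor at the 75th percentile 1 of 6 members was called. Leaving out 1 array at a time gave 1 to 2 members and 1493 to 2012 genes, in a fit with tissue alone in which the lone array of a tissue is assumed to vary like the pair of the other. Genes called numbered 1911 as reported, 3029 with every probe set on its own and 2916 with a variance trend. Genes 2-fold different between genotypes in mandible and maxilla numbered 278 as reported, 2847 with no floor, 69 with the higher floor, 432 with the mean of all probe sets and 618 with every probe set. In brain they numbered 389, 2829 with no floor, 146 with the higher floor and 1007 with every probe set. The share of these that were higher in FoxO6-/- was 25.9% in mandible and maxilla as reported, 44.2% with quantile normalization and 48.8% with median centring, and in brain 35.7% as reported and 54.2% with median centring. Genes 2-fold different between tissues numbered 2465 in FoxO6-/- and 2294 in WT, 5198 and 4996 with no floor, 1124 and 993 with the higher floor and 4900 and 3977 with every probe set. The excess of barrier over general members was 1.21 in FoxO6-/- and 0.98 in WT, 0.783 and 0.430 with the higher floor and 1.04 and 0.655 with gene-specific probe sets. With the higher floor only Cldn5 and Slc2a1 stand for the barrier. The members' median in brain was 0.054 with median centring. Over both tissues, where no gene was called under any of 10 alternatives and 83 to 1253 genes had an unadjusted p under 0.05, the fitted genotype difference turned sign for Emcn (0.016) with quantile normalization, for Cldn5 (0.108), Kdr (0.085) and Emcn (0.124) with median centring and for Slco1c1 (-0.014) with low signals raised to the floor. The cause of these changes was not tested. No paired analysis was possible because the labels give each tissue and genotype 1 array and no replicate number, while the fit of tissue already holds genotype as a term. One array per group, and signals near the floor, limit every genotype ratio.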
